A study of Homo sapiens with 12 samples.

Results

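GFP-low cells were compared with GFP-high cells in cultures that had all received FX1, in 6 of the 12 libraries of the series. Raji cells are an established Burkitt lymphoma line with germinal centre B-cell traits, and FX1 is a small-molecule inhibitor of the repressor BCL6. The 3 GFP-low FX1 and 3 GFP-high FX1 libraries are the groups described here, with 3 GFP-low DMSO and 3 GFP-high DMSO libraries as the same comparison in vehicle. All 12 are labelled Smarca4+/+ and 24 h, the design text speaks of SMARCA4 removal through an auxin-inducible degron, and the labels say neither what a GFP level means for SMARCA4 protein nor which cells received auxin. The gates are therefore called by their GFP level alone. Whether the 3 libraries per group are separate cultures, and how many clones the line holds, is not stated, so p-values cover only the spread between libraries, which may be technical. Of 60707 genes in the count table, 17859 passed the filter on low counts and are the members of the comparison.

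SMARCA4 (BRG1) is one of the alternative ATPases of the SWI/SNF complexes, which slide or evict nucleosomes and so open enhancers and promoters. BCL6 recruits corepressors to hold germinal centre B cells in a proliferating state. It keeps genes of activation, NF-kB signalling, migration out of the germinal centre and plasma cell differentiation low, among them PRDM1, CCL3 and CD69. Germinal centre cells cycle between a dark zone, where they divide, and a light zone, where signals through the B-cell receptor and CD40 switch on NF-kB genes such as the lymphotoxins.

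With FX1 present, GFP-low cells held less RNA of chemokines, lymphotoxins and other NF-kB genes than GFP-high cells, and less of activation receptors, replication-dependent histones, cell cycle genes and chaperones. CCL4 had the largest fall of the coding genes named here, a log2 change of -2.25 ± 0.094 (SE; a negative value is lower in GFP-low). PRDM1, CXCR4 and the endoplasmic reticulum gene DERL3 were higher in GFP-low cells. Non-coding transcripts, where called, were more often higher than lower. By edgeR's quasi-likelihood test with Benjamini-Hochberg adjustment, 10158 of the 17859 genes differed (56.9%), 5391 higher (30.2%) and 4767 lower (26.7%) in GFP-low FX1. Of these, 888 (4.97%) had an estimated change of at least 2-fold, 672 higher and 216 lower. A test against a floor of 1.5-fold was passed by 728 (4.08%), 362 higher and 366 lower. The ranges of the 3 and 3 libraries did not overlap for 10920 genes (61.1%). Among protein-coding genes 8288 of 11726 were called (70.7%), 3944 higher and 4344 lower. These are the share and counts against which those of coding gene lists are to be read.

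The FX1 libraries held 20454028 to 42556661 counts each, and the first principal component of their log2 CPM, which parted the gates, held 90.6% of the variance. The common biological coefficient of variation was 1.67%, and the variance of counts between libraries of one gate was 1.72 to 1.77 times that of read sampling, so changes of a few percent passed the test. Mitochondrial genes took 5.09% ± 0.037 of counts in GFP-low FX1 and 4.28% ± 0.043 in GFP-high FX1 (SD, n = 3 each). RN7SL1, the RNA of the signal recognition particle, took 0.569% ± 0.019 in GFP-low FX1 and 0.325% ± 0.023 in GFP-high FX1. Of 7 B-cell markers fixed as a list, all were above 1 CPM in both gates, summing to 1856 to 1863 CPM in GFP-low FX1 and 2262 to 2285 CPM in GFP-high FX1. Of 10 T and NK cell markers, 7 were under 1 CPM, with CD2 and CD8A at 0 (3 counts, the limit that a count of 0 allows, are 0.138 CPM in the shallowest library), and the sums were 4.68 to 6.76 CPM in GFP-low FX1 and 7.92 to 8.24 CPM in GFP-high FX1. LCK, CD3D and CD3G, the 3 of these called, changed by -0.29 ± 0.13, -0.86 ± 0.22 and -2.10 ± 0.6, CD3G at 0.111, 0.0336 and 0.184 CPM in GFP-low FX1, against 0.462, 0.41 and 0.504 CPM in GFP-high FX1. The call of LCK was lost without GFP-low FX1 replicate 3, GFP-high FX1 replicate 1 or GFP-high FX1 replicate 3, at -0.14, -0.25 and -0.28. Of 8 myeloid markers, 7 were under 1 CPM, with FCGR1A and S100A8 at 0, and sums of 6.02 to 6.42 CPM in GFP-low FX1 and 2.19 to 2.77 CPM in GFP-high FX1 were mostly ITGAM, an integrin chain (5.28, 4.95 and 4.91 CPM in GFP-low FX1, against 1.85, 1.67 and 1.69 CPM in GFP-high FX1). CD14, near the floor, changed by 1.03 ± 0.47 and was not called without any 1 of the 6 libraries, at 0.93 to 1.15. Of 8 epithelial and stromal markers, 7 were under 1 CPM, with KRT18 and KRT19 at 0, and the sums of 15.3 to 17.3 CPM in GFP-low FX1 and 8.32 to 8.92 CPM in GFP-high FX1 were mostly COL1A1 (0.96 ± 0.079). In bulk RNA, fewer cells of a kind and less RNA per cell cannot be told apart.

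The change between the gates followed the GC content of the transcript. The mean transcript GC content weighted by counts was 48.4% in each GFP-low FX1 library, against 47.3 to 47.4% in the GFP-high FX1 libraries. Across the 10430 genes whose mean log2 CPM reached 2, the log2 change and GC content had a Spearman rho of 0.685, and genes are not independent replicates. Among the 1043 genes of lowest GC content (27.8 to 38.1%), the first of 10 equal groups, 33 rose and 874 fell, with a median log2 change of -0.40. Among the 1043 genes of highest GC content (60.6 to 83.9%), 904 rose and 49 fell, with a median of 0.39. With a smooth trend on GC content and length removed from each library, the 10 groups had medians of -0.07 to -0.04, and 8798 of 17557 genes were called (50.1%), 4086 higher (23.3%) and 4712 lower (26.8%). Of 10066 calls that could be followed, 6152 (61.1%) kept their direction, 3059 were lost and 855 turned. Among 11721 protein-coding genes, 2430 rose and 4455 fell with the trend removed (median -0.04). Counts of coding lists with the trend removed are to be read beside these. What this trend owes to library preparation or to the cells was not tested. Most gene groups are therefore given with their counts before and after the trend was removed, and below, a second log2 change in brackets beside that of a gene is the one with the trend removed, given where it differs by over 1.5 times and for some others. Of the marker genes above, LCK and COL1A1 stood at -0.52 and 0.53 with the trend removed.

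**Figure D1:**
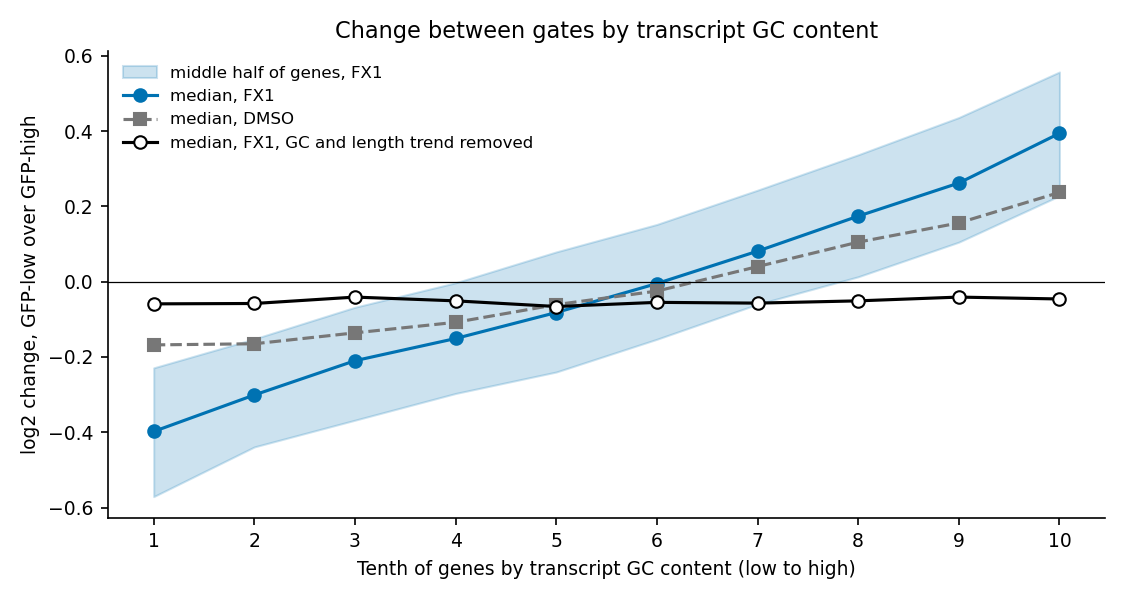
Median log2 change between the gates (GFP-low over GFP-high) in 10 equal groups of 10430 genes ordered by transcript GC content, under FX1 (blue, with a band between the quartiles) and DMSO (grey), and under FX1 with the GC and length trend removed (open points). The FX1 medians run from -0.40 in the group of lowest GC content to 0.39 in the highest, the DMSO medians from -0.17 to 0.24, and the open points lie between -0.07 and -0.04.

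The genes at the centre of the study's design moved little except for PRDM1. PRDM1, which encodes BLIMP1, the repressor that drives plasma cell differentiation (ENSG00000057657.17, chromosome 6, 105993463 to 106109939, hg38), stood at 125, 122 and 126 CPM in GFP-low FX1, against 78.8, 82 and 80.4 CPM in GFP-high FX1. The gates did not overlap, and the log2 change was 0.63 ± 0.03 (edgeR adjusted p = 8.51e-56), or 0.63 with the GC trend removed. SMARCA4 (ENSG00000127616.20, chromosome 19, 10960932 to 11079426) stood at 455, 460.4 and 452 CPM in GFP-low FX1, against 386, 389 and 391 CPM in GFP-high FX1. The GFP-low libraries were all higher (log2 change 0.23 ± 0.015, edgeR adjusted p = 1.77e-37), but with the GC trend removed SMARCA4 was lower, at -0.20 (edgeR adjusted p = 2.29e-29). A degron removes protein, so RNA cannot verify the gates. At BCL6 (ENSG00000113916.18, chromosome 3, 187721377 to 187745725) the libraries held 216, 212 and 226 CPM in GFP-low FX1, against 198, 203 and 196 CPM in GFP-high FX1, a log2 change of 0.13 ± 0.019 that was 0.03 and not called with the trend removed. SMARCA2, the other SWI/SNF ATPase, stood at 85.9, 81.7 and 86.1 CPM in GFP-low FX1, against 89.5, 91.3 and 89.8 CPM in GFP-high FX1 (log2 change -0.09 ± 0.03). Its call was lost with the trend removed and without GFP-low FX1 replicate 2, at -0.02 and -0.07.

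Chemokine and lymphotoxin genes were among the coding genes that fell most. CCL4 (ENSG00000275302.2, chromosome 17, 36103827 to 36105621), which encodes MIP-1 beta, a chemoattractant of immune cells, stood at 5.04, 5.01 and 4.68 CPM in GFP-low FX1, against 23.7, 22.6 and 24.4 CPM in GFP-high FX1. CCL3 (ENSG00000277632.2, chromosome 17, 36088256 to 36090169), which encodes MIP-1 alpha, stood at 25.3, 24.1 and 24.8 CPM in GFP-low FX1, against 88.5, 84.8 and 88.3 CPM in GFP-high FX1. In both genes every GFP-low library lay far below every GFP-high one, with log2 changes of -2.25 ± 0.094 and -1.82 ± 0.044 (edgeR adjusted p = 2.44e-63 and 1.04e-111). CCL4L2, a near-identical copy of CCL4 whose reads the counting could have split, changed by -1.58 ± 0.045. LTA (ENSG00000226979.9, chromosome 6, 31572054 to 31574324), lymphotoxin alpha, stood at 43, 46.1 and 41.9 CPM in GFP-low FX1, against 134, 131 and 135 CPM in GFP-high FX1. LTB (ENSG00000227507.3, chromosome 6, 31580525 to 31582522), lymphotoxin beta, which anchors the lymphotoxin trimer to the membrane, stood at 31.2, 28.6 and 31.4 CPM in GFP-low FX1, against 71.5, 74.6 and 70.9 CPM in GFP-high FX1. Neither overlapped between gates, with log2 changes of -1.61 ± 0.032 and -1.25 ± 0.041, and both were further apart with the GC trend removed, at -1.80 and -1.62. TNF, chosen after its values were seen, changed by -0.89 ± 0.045.

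**Figure D2:**
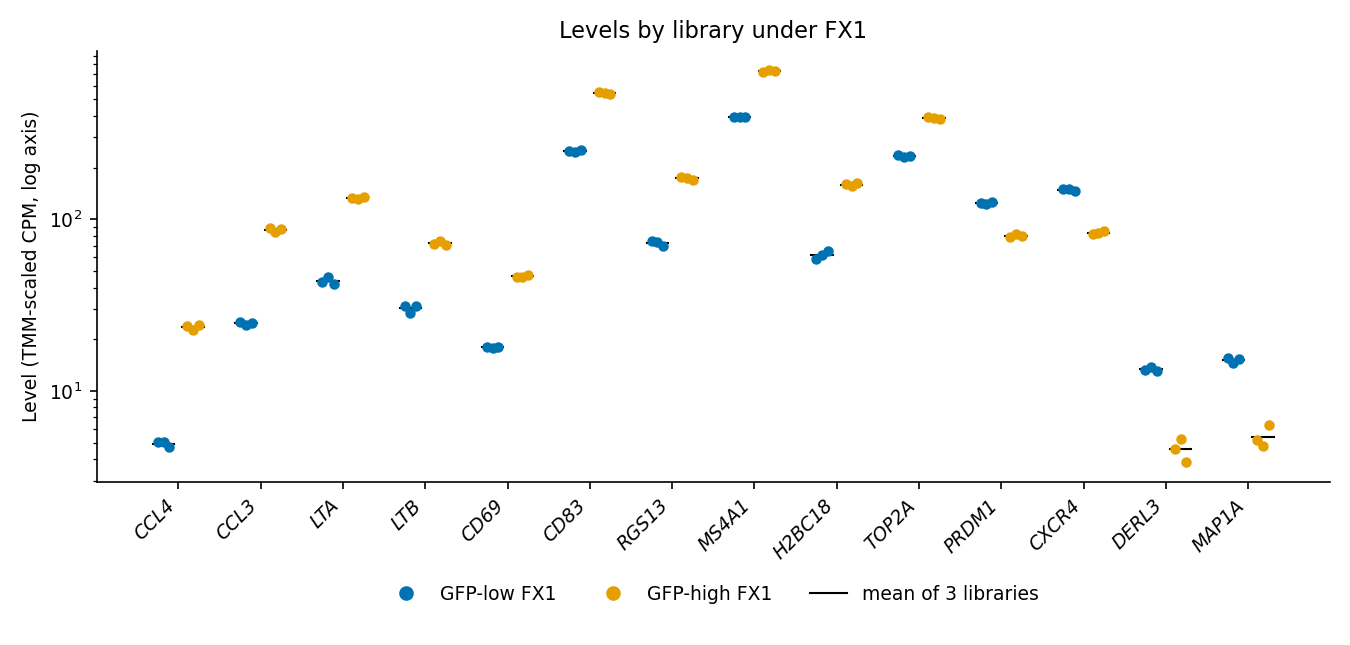
Levels of 14 genes in each of the 3 GFP-low FX1 libraries (blue, left of each pair) and 3 GFP-high FX1 libraries (orange, right), as TMM-scaled CPM on a log axis, with black lines at the means. For CCL4 the GFP-low libraries lie at 4.68 to 5.04 CPM and the GFP-high ones at 22.6 to 24.4 CPM, and no pair of gates overlaps for any gene shown.

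The rest of the NF-kB list moved the same way by smaller amounts. Of 24 tested subunits and targets, 17 fell and 4 rose (median log2 change -0.28, against 0.08 for all genes and 0.01 for protein-coding genes), and with the GC trend removed 21 fell and 1 rose (median -0.39). BCL2A1, an anti-apoptotic relative of BCL2, changed by -1.33 ± 0.097, at a low level (4.88, 4.74 and 4.22 CPM in GFP-low FX1, against 11.9, 12.3 and 11.1 CPM in GFP-high FX1). BIRC3, a ubiquitin ligase that restrains cell death, stood at 482, 473 and 485 CPM in GFP-low FX1, against 666, 689 and 685 CPM in GFP-high FX1. Its change was -0.50 ± 0.013, or -0.12 with the trend removed. TRAF1, an adaptor of TNF receptors, changed by -0.57 ± 0.021 (-0.82 with the trend removed). The difference from DMSO in the gate effect was lower for 13 members and higher for 1.

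A kB site, the DNA element bound by NF-kB, was searched in RefSeq promoters (GRCh38.p14, 250 bases before to 50 after the start, both strands) by its 10-letter consensus. It was found in 9 of the 20 list members with a promoter entry (45%), against 2958 of 27305 promoters in all (10.8%). Among promoters of tested genes the share was 12.4%. The LTB promoter (chr6:31582376-31582675, minus strand) is shown because LTB is the lymphotoxin with an entry that holds matches, which are in capitals.

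LTB: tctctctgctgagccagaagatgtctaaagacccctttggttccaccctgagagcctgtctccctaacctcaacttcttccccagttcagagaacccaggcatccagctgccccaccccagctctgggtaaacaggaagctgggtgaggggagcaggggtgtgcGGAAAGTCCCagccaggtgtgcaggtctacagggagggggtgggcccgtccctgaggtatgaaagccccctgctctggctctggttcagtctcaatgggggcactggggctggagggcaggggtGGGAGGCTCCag

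The 2 matches begin at positions -86 and 39 from the start. Matches are descriptions of letters, and binding was not measured.

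Light-zone and activation receptors were lower as well, as was a SLAM adaptor. CD83 (ENSG00000112149.10, chromosome 6, 14117256 to 14136918), a surface marker of light-zone cells, stood at 251, 248 and 253 CPM in GFP-low FX1, against 552, 545 and 537 CPM in GFP-high FX1. The gates lay about 2-fold apart without overlap (log2 change -1.12 ± 0.016, edgeR adjusted p = 1.84e-156; -1.13 with the GC trend removed). CD69 (ENSG00000110848.8, chromosome 12, 9752486 to 9760901), an early activation antigen that holds lymphocytes in tissue, stood at 18, 17.9 and 17.9 CPM in GFP-low FX1, against 46.4, 46.2 and 47.3 CPM in GFP-high FX1 (log2 change -1.38 ± 0.05; -0.97 with the trend removed). SLAMF1, a receptor of the SLAM family, and SH2D1A, which encodes the SLAM adaptor SAP, changed by -1.10 ± 0.031 and -1.49 ± 0.084, SH2D1A at 5.66, 6.19 and 5.23 CPM in GFP-low FX1, against 15.8, 15.8 and 16.5 CPM in GFP-high FX1. Of 23 light-zone and CD40 response genes, 15 fell and 4 rose (median -0.27), and 18 fell and 2 rose with the trend removed. CD40 itself, named after its values were seen, changed by -0.46 ± 0.031. The light-zone list shares BCL2A1, TRAF1, CD40 and others with the NF-kB list, so their counts are not independent.

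Genes listed as repressed by BCL6 fell more often than they rose. Of 26 tested, 19 fell and 7 rose (median -0.29), or 15 and 5 with the trend removed (median -0.24). The fallers included CCL3, CCL4 and CD69, which are also NF-kB or activation genes, and the risers PRDM1 and CXCR4. CXCR4 (ENSG00000121966.7, chromosome 2, 136114349 to 136118149), the receptor that draws B cells to the dark zone and to bone marrow, stood at 151, 149.6 and 146 CPM in GFP-low FX1, against 82.6, 83.4 and 85 CPM in GFP-high FX1, with no overlap (log2 change 0.83 ± 0.027, edgeR adjusted p = 2.01e-84; 0.97 with the trend removed). Among the other migration genes, ITGA4, an integrin chain, and GNA13, a G protein that confines germinal centre cells, changed by -0.59 ± 0.023 and -0.43 ± 0.018 (-0.24), and 7 of 17 members rose and 6 fell (5 and 8 with the trend removed).

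B-cell identity genes were mostly lower in GFP-low FX1. MS4A1 (ENSG00000156738.18, chromosome 11, 60455846 to 60470752), which encodes CD20, stood at 395, 397 and 395 CPM in GFP-low FX1, against 722, 739 and 729 CPM in GFP-high FX1 (log2 change -0.88 ± 0.014; -0.57 with the GC trend removed). CR2, the complement receptor that lowers the threshold of the B-cell receptor, stood at 139, 135 and 132 CPM in GFP-low FX1, against 248, 245 and 249 CPM in GFP-high FX1 (-0.87 ± 0.018), and PRKCB, a kinase between that receptor and NF-kB, changed by -0.63 ± 0.021. Of 25 receptor signalling genes, 16 fell and 7 rose (median -0.29), or 19 and 3 with the trend removed. Of the 7 B-cell markers 4 fell and 2 rose (5 and 1 with the trend removed). CD22 changed by -0.30 ± 0.014 (-0.52) and CD79B, a signalling chain of the receptor, by 0.39 ± 0.017, which was 0.12 with the trend removed. PAX5, named after its values were seen, changed by -0.25 ± 0.016 (-0.51).

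Among 25 germinal centre genes there were 15 falls and 6 rises (median -0.19), and 14 and 6 with the trend removed. RGS13 (ENSG00000127074.15, chromosome 1, 192636138 to 192660311), a regulator of G-protein signalling typical of germinal centre B cells, stood at 74.9, 73.4 and 70.1 CPM in GFP-low FX1, against 176, 175 and 169 CPM in GFP-high FX1, without overlap (log2 change -1.24 ± 0.023, edgeR adjusted p = 2.73e-135; -0.87 with the trend removed). SERPINA9, a serine protease inhibitor of germinal centre B cells, and GCSAM, a germinal centre signalling protein, changed by -0.85 ± 0.02 and -0.56 ± 0.02 (-0.34). Of 22 B-lineage transcription factors 13 fell and 5 rose, and 13 and 5 with the trend removed, of which 10 falls and 2 rises were the same genes. IKZF1, IKZF3 and ETS1, the factors with the lowest p, changed by -0.36 ± 0.017, -0.39 ± 0.015 and -0.40 ± 0.018.

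Plasma cell genes fell more often than they rose, with PRDM1 and DERL3 among the risers. Of 17 tested, 9 fell and 3 rose (median -0.20), or 12 and 2 with the trend removed. JCHAIN, the joining chain of polymeric antibodies, stood at 364, 360.3 and 359.6 CPM in GFP-low FX1, against 769, 753 and 751 CPM in GFP-high FX1 (log2 change -1.07 ± 0.014; -0.62 with the trend removed). CD27, a TNF receptor of memory and plasma cells, changed by -0.78 ± 0.034. DERL3 (ENSG00000099958.15, chromosome 22, 23834503 to 23839128), which takes part in removing misfolded proteins from the endoplasmic reticulum, stood at 13.3, 13.8 and 13 CPM in GFP-low FX1, against 4.59, 5.23 and 3.85 CPM in GFP-high FX1, the largest rise among the protein-coding genes named (log2 change 1.56 ± 0.093, edgeR adjusted p = 1.67e-43; 1.21 with the trend removed). The immunoglobulin alpha constant regions IGHA1 and IGHA2, which are near-identical and may share reads, changed by 0.95 ± 0.04 (0.58) and 1.20 ± 0.11, IGHA1 at 74.7, 73 and 67.9 CPM in GFP-low FX1, against 39.1, 35.3 and 37.3 CPM in GFP-high FX1.

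Replication-dependent histone genes, which are transcribed in S phase to package new DNA, were lower almost throughout. Of 52 tested, 50 fell (median -0.71), and 49 fell with the GC trend removed (median -0.78). The 2 members that did not pass the test, H2BC6 and H3C6, were of low level, at 0.30 ± 0.18 and -0.24 ± 0.25 (-0.14, not called). By family, all 4 linker H1, 13 H2A and 11 H4 genes fell, as did 14 of 15 H2B and 8 of 9 H3 genes, with medians of -0.59, -0.78, -0.85, -0.80 and -0.55. H2BC18 (ENSG00000203814.6, chromosome 1, 149782689 to 149812373) stood at 58.4, 61.9 and 65.1 CPM in GFP-low FX1, against 159.8, 156 and 162 CPM in GFP-high FX1 (log2 change -1.38 ± 0.027, edgeR adjusted p = 4.99e-118). The H4 genes H4C11 and H4C12 changed by -1.88 ± 0.085 and -1.62 ± 0.086, at a low level (4.79, 5.08 and 4.41 CPM in GFP-low FX1, against 17.9, 17.3 and 17.6 CPM in GFP-high FX1 for H4C11), and H2BC5 and H2BC4 by -0.80 ± 0.02 and -0.84 ± 0.021. Histone genes took 0.315% ± 0.0014 of counts in GFP-low FX1 and 0.482% ± 0.0026 in GFP-high FX1 (SD, n = 3 each). Members share long stretches of sequence, so reads may have been split among them.

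Most H2A and H2B promoters hold an octamer, the element ATTTGCAT read by POU factors, and a CCAAT box, searched on both strands. The octamer was in 12 of 15 H2B promoters (80%) and 10 of 12 H2A promoters (83.3%), against 1.8% of all promoters, and CCAAT was in 40 of 47 histone promoters (85.1%), against 35.7%. The promoters of H2BC18 (chr1:149812321-149812620) and H2BC21 (chr1:149886633-149886932), both on the minus strand, are shown with both elements in capitals. H2BC21, chosen for its promoter, stood at 45.3, 45.1 and 50.6 CPM in GFP-low FX1, against 99.7, 99.6 and 100.5 CPM in GFP-high FX1 (log2 change -1.10 ± 0.075).

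H2BC18: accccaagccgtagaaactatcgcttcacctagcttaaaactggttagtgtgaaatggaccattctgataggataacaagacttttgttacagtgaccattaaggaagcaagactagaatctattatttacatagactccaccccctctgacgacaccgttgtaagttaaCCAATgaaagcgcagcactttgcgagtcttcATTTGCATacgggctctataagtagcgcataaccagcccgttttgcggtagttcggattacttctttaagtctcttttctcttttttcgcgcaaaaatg
H2BC21: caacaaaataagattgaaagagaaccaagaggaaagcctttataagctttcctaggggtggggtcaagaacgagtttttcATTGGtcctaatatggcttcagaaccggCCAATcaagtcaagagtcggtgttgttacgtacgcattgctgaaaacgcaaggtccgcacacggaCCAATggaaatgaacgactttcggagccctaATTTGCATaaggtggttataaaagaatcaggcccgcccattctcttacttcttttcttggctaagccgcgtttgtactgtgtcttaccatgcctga

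The octamer begins at position -49 in H2BC18 and -46 in H2BC21, with the nearest CCAAT box at -80 and -77, and no match overlaps another.

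Cell cycle genes fell in most cases. Of 32 G1/S and replication genes, 24 fell and 4 rose (median -0.23), and 30 fell with the GC trend removed. PCNA, the sliding clamp of DNA polymerase, stood at 91.4, 91.3 and 93.6 CPM in GFP-low FX1, against 147, 145 and 144 CPM in GFP-high FX1 (log2 change -0.66 ± 0.024), and MCM4, a helicase subunit, and RRM2, the ribonucleotide reductase subunit of S phase, changed by -0.37 ± 0.014 and -0.55 ± 0.025. Mitotic genes gave 24 falls and 3 rises among 33 (median -0.27), and 28 fell with the trend removed. TOP2A (ENSG00000131747.15, chromosome 17, 40388525 to 40417896), the topoisomerase that untangles chromosomes, stood at 238, 230.4 and 234 CPM in GFP-low FX1, against 395, 389.8 and 385 CPM in GFP-high FX1 (log2 change -0.73 ± 0.016, edgeR adjusted p = 5.14e-118). CDK1, the mitotic kinase, and CENPE, a kinetochore motor, changed by -0.84 ± 0.031 and -0.62 ± 0.024, or -0.46 and -0.30 with the trend removed. Cell cycle phase was not measured.

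The CHR element TTTGAA, which with CCAAT boxes marks promoters of late cell cycle genes, was in 16 of 27 G2/M promoters (59.3%), against 15.4% of all promoters, and CCAAT in 19 of 27 (70.4%), against 35.7%. The TOP2A promoter (chr17:40417847-40418146, minus strand) is shown with matches on either strand in capitals.

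TOP2A: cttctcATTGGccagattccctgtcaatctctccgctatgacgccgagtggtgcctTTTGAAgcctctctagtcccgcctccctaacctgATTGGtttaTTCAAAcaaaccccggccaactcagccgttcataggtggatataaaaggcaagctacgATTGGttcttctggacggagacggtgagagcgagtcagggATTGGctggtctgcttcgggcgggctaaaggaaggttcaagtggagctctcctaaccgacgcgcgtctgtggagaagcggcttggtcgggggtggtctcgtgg

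The matches are CHR elements at -194 and -151 and CCAAT boxes, here as ATTGG, at -244, -160, -93 and -53.

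Protein folding genes were lower in both the cytosol and the endoplasmic reticulum. Of 17 heat shock genes, 14 fell and 2 rose (median -0.39), or 16 and 1 with the GC trend removed. HSP90AA1, a stress-inducible HSP90, stood at 2045, 2057 and 2039 CPM in GFP-low FX1, against 2876, 2865 and 2906 CPM in GFP-high FX1 (log2 change -0.49 ± 0.011). HSPA8, the constitutive HSP70, and HSPH1, which reloads HSP70, changed by -0.44 ± 0.01 and -0.54 ± 0.014 (-0.33). Of 21 unfolded protein response genes, 15 fell and 4 rose (median -0.24), or 16 and 3 with the trend removed. CANX and CALR, the lectin chaperones calnexin and calreticulin, changed by -0.50 ± 0.012 (-0.33) and -0.36 ± 0.012, and HSPA5, the chaperone BiP, by -0.34 ± 0.013. PDIA3, a disulfide isomerase that also loads MHC class I, changed by -0.24 ± 0.015 (-0.15).

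Genes of protein synthesis fell by small amounts. Of 84 cytosolic ribosomal protein genes, 60 fell and 16 rose (median -0.15), and of 77 mitochondrial ribosomal protein genes 43 fell and 9 rose (median -0.15). Both medians stayed within 0.01 with the GC trend removed, when the counts were 61 and 13 and 48 and 5. RPL22, RPS15A and RPS24 changed by -0.58 ± 0.018, -0.51 ± 0.015 and -0.40 ± 0.013 (-0.23), and MRPL42, MRPS30 and MRPL3 by -0.64 ± 0.026, -0.59 ± 0.025 (-0.19) and -0.43 ± 0.022 (-0.23). Of 20 aminoacyl-tRNA synthetase genes 13 fell and 6 rose (16 and 1 with the trend removed, the 1 being none of the 6), with NARS1, TARS1 and GARS1 at -0.42 ± 0.018, -0.36 ± 0.019 and -0.27 ± 0.014, and of 37 proteasome genes 19 fell and 7 rose (16 and 9), with PSMD12, PSMA4 and PSMA3 at -0.67 ± 0.024 (-0.37), -0.32 ± 0.022 (-0.18) and -0.35 ± 0.025 (PSMA3 stood at 0.08 with the trend removed). Of 23 NRF2 oxidative stress genes 13 fell and 8 rose (17 and 1 with the trend removed). The cystine transporter gene SLC7A11 changed by -0.47 ± 0.019 (-0.17 with the trend removed). PGD and TXNRD1, which supply and use NADPH, changed by -0.29 ± 0.013 and -0.30 ± 0.013. The antioxidant response element, TGACNNNGC, was in 3 of 17 promoters of this list (17.6%). Its share was 13.6% of all promoters and 15.6% of those of tested genes.

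In the mitochondrial genome both ribosomal RNAs fell, while more of the messenger RNAs rose than fell, by small amounts. The 2 ribosomal RNAs were among the largest falls of the comparison, with MT-RNR1 at 128, 127 and 129 CPM in GFP-low FX1, against 809, 829 and 847 CPM in GFP-high FX1 and MT-RNR2 at 204, 200.4 and 200.2 CPM in GFP-low FX1, against 1009, 1013 and 1044 CPM in GFP-high FX1 (log2 changes -2.69 ± 0.018 and -2.34 ± 0.015). The libraries were depleted of ribosomal RNA, so these counts are what the depletion left, and its efficiency in each library was not measured. Of 13 messenger RNAs, 8 rose, 3 fell and 2 were not called (median 0.11), and 12 rose with the GC trend removed. Their log2 changes ran from -0.39 to 0.39, with MT-CO1 the highest. MT-CO1, a subunit of cytochrome c oxidase, stood at 14870, 14660 and 14690 CPM in GFP-low FX1, against 11090, 11360 and 11210 CPM in GFP-high FX1 (log2 change 0.39 ± 0.0091, edgeR adjusted p = 9.03e-109). Of 21 transfer RNAs 11 rose and 3 fell. The 3 fallers, MT-TF, MT-TV and MT-TL1, are those that flank the ribosomal RNA genes, at -1.31 ± 0.18, -3.60 ± 0.78 and -3.32 ± 0.34, and were singled out after their values were seen. Under DMSO the gate effect was negative for all 13 messenger RNAs (median -0.93), with MT-CO1 at -0.63, and negative for both ribosomal RNAs.

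**Figure D3:**
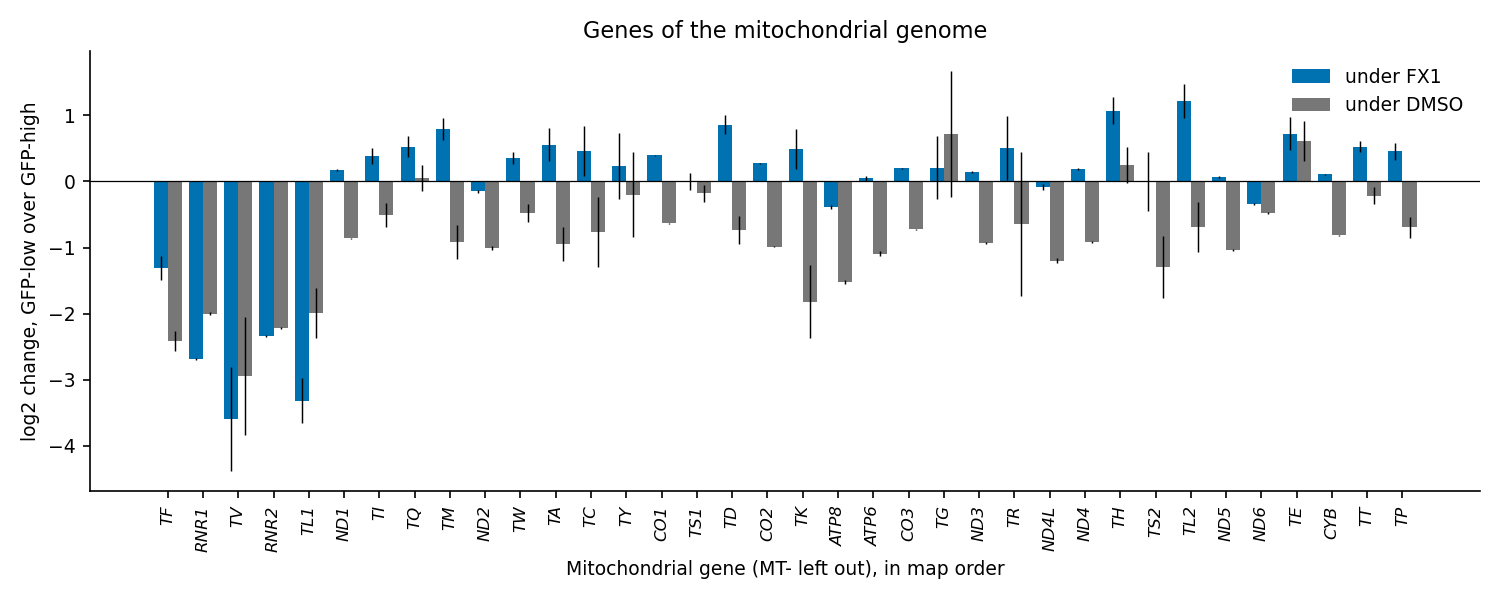
Log2 change between the gates (GFP-low over GFP-high) with its SE for the 36 tested genes of the mitochondrial genome in map order, under FX1 (blue, left of each pair) and DMSO (grey). Both ribosomal RNA genes and the 3 transfer RNA genes beside them are below 0 under both treatments, while MT-CO1 is at 0.39 under FX1 and -0.63 under DMSO.

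The 15 largest rises in coding genes came from genes of unlike functions, DERL3 among them. MAP1A (ENSG00000166963.13, chromosome 15, 43510958 to 43531620), a microtubule-associated protein, stood at 15.6, 14.5 and 15.3 CPM in GFP-low FX1, against 5.19, 4.75 and 6.31 CPM in GFP-high FX1 (log2 change 1.48 ± 0.097; 1.16 with the GC trend removed). ABCA7, a lipid transporter, stood at 121, 119 and 115 CPM in GFP-low FX1, against 54.3, 49.1 and 50.6 CPM in GFP-high FX1 (1.20 ± 0.033; 0.67 with the trend removed). The channel genes CALHM1, KCNH2 and KCNN4 changed by 1.48 ± 0.13, 1.27 ± 0.13 (0.72) and 1.20 ± 0.12. Other rises were in RINL, LRRC56, ADAMTS13 (the protease of von Willebrand factor), LRRC4B, THBS3, COL7A1 (a collagen), TTC34 and TP53I13, from 1.12 to 1.30. With the trend removed the 15 genes lay between 0.61 and 1.21, each still called.

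Beside the genes given so far, the 15 largest coding falls by the same rule included B3GNT5, MARCHF1 and MPEG1. B3GNT5 is a glycolipid glycosyltransferase, MARCHF1 a ubiquitin ligase that takes MHC class II and CD86 off the surface, and MPEG1 the pore-forming perforin-2. B3GNT5 stood at 6.79, 6.86 and 6.79 CPM in GFP-low FX1, against 22.8, 21.3 and 20.7 CPM in GFP-high FX1 (log2 change -1.67 ± 0.081). MARCHF1 and MPEG1 changed by -1.38 ± 0.093 and -1.32 ± 0.11.

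Non-coding transcripts were less often called than all genes and, where called, were more often higher than lower. Of 1267 antisense genes, 355 were called higher and 58 lower (median 0.33), of 1090 lincRNAs 280 and 99 (median 0.25) and of 427 sense-intronic transcripts 94 and 22 (median 0.21). With the GC trend removed the counts were 347 and 44, 325 and 56, and 175 and 5. Before its removal the shares called were 32.6%, 34.8% and 27.2%, against 56.9% of all genes, 30.2% higher and 26.7% lower. Among the 10467 genes of all types whose mean log2 CPM reached 2, 3685 rose and 4388 fell, against 5391 and 4767 of all 17859. Gene types were not matched for level, so the part of low counts in these shares and directions was not tested. Because strand use in counting is not given in the sources used here, reads of antisense and intronic transcripts cannot be told apart from those of the genes they overlap. PXN-AS1, antisense to PXN, changed by 0.95 ± 0.12, and the small nucleolar RNAs SNORA5C and SNORD104 by 1.49 ± 0.098 and 1.36 ± 0.16. Of 141 small nucleolar and Cajal body RNAs tested, 25 rose, 17 fell and 99 were not called. At 2-fold or more, 6 rose and 8 fell. With the trend removed the counts were 38 higher and 7 lower. Of 27 small nucleolar RNA host genes 18 rose and 5 fell (16 and 4 with the trend removed), with SNHG15 and SNHG17 at 0.39 ± 0.025 and 0.29 ± 0.02 (0.19) and SNHG16 at -0.29 ± 0.017. SCARNA7, a Cajal body RNA, changed by -0.44 ± 0.03 but stood at 0.06, not called, with the GC trend removed. RN7SL1 and RN7SL3, copies of the signal recognition particle RNA, changed by 0.71 ± 0.074 (0.46) and 0.65 ± 0.025 (0.42). RNY1, a Y RNA, stood at 0.488, 0.235 and 0.138 CPM in GFP-low FX1, against 5.17, 5.43 and 5.6 CPM in GFP-high FX1 (log2 change -4.01 ± 0.52), and MIR1244-2, a microRNA locus with several copies, changed by -1.99 ± 0.12 (-1.33).

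SWI/SNF subunits and other chromatin genes changed direction with the GC trend. Of 28 SWI/SNF genes 14 rose and 9 fell (median 0.10), but 5 rose and 15 fell with the trend removed (median -0.09), and 4 risers and 6 fallers were called the same way both times. ACTB, the actin subunit shared with the cytoskeleton, and PBRM1, the bromodomain subunit of the PBAF form, changed by -0.31 ± 0.0098 and -0.31 ± 0.021, and stayed lower at -0.51 and -0.15. Of 18 BCL6 corepressor genes 8 rose and 3 fell, or 1 and 11 with the trend removed. TBL1XR1, a subunit of the NCOR and SMRT complexes, stood at 319, 327 and 322 CPM in GFP-low FX1, against 580.5, 569.9 and 580 CPM in GFP-high FX1 (log2 change -0.84 ± 0.014; -0.49 with the trend removed). HDAC2 and HDAC5 changed by -0.32 ± 0.018 and 0.58 ± 0.054, or -0.11 and 0.16. Of 24 histone and DNA modifiers 16 rose and 2 fell, or 3 and 11 with the trend removed. The methyltransferase gene KMT2D and the demethylase gene KDM6B changed by 0.37 ± 0.015 and 0.34 ± 0.023 but stood at -0.11 and -0.13 with the trend removed, and KMT2B, at 0.53 ± 0.023, was then not called (0.00).

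Polycomb and remodeller lists split evenly before the trend was removed. Of 31 Polycomb genes 14 rose and 15 fell (7 and 15 with the trend removed), with PCGF5, SUZ12 and AEBP2 at -0.84 ± 0.026 (-0.46), -0.60 ± 0.022 (-0.31) and -0.61 ± 0.026 (-0.34). Of 20 ISWI, CHD and INO80 genes 8 rose and 10 fell (2 and 13), with SMARCA5, BAZ1A and HELLS at -0.41 ± 0.017 (-0.20), -0.45 ± 0.018 (-0.29) and -0.53 ± 0.02 (-0.24). Of 393 zinc finger genes 122 rose and 116 fell (median 0.04), with 113 and 72 when the trend was removed and 111 and 123 with DESeq2's size factors. The 3 of lowest p were ZNF770, ZNF267 and ZNF24 at -0.68 ± 0.018 (-0.35), -0.77 ± 0.031 (-0.49) and -0.58 ± 0.027 (-0.30).

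Lipid and sugar metabolism showed no common direction. Of 24 cholesterol synthesis genes 11 rose and 8 fell (6 and 9 with the trend removed). INSIG1, which holds the SREBP proteins in the endoplasmic reticulum when sterols are plentiful, stood at 243, 242 and 244 CPM in GFP-low FX1, against 475, 483 and 474 CPM in GFP-high FX1 (log2 change -0.97 ± 0.015; -0.94 with the trend removed). FASN, fatty acid synthase, and SREBF1 changed by 0.51 ± 0.012 and 0.71 ± 0.028 (0.26), FASN standing at -0.07 with the trend removed, and ELOVL5, a fatty acid elongase, and STARD4, a sterol carrier, by -0.43 ± 0.019 (-0.25) and -0.67 ± 0.027 (-0.27). Of 31 hypoxia and glycolysis genes 15 fell and 12 rose (18 and 8 with the trend removed), with LDHA, lactate dehydrogenase, at -0.41 ± 0.013, HIF1A at -0.41 ± 0.02 (-0.06 with the trend removed) and PFKL at 0.45 ± 0.02 (-0.06).

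Stress, growth and cell death lists varied in direction. Once the trend was removed, falls outnumbered rises in the AP-1, p53 and MYC lists, while the BCL2, death receptor and ATF4 lists were near even. Of 21 AP-1 and immediate early genes 10 rose and 2 fell (3 and 8 with the trend removed). FOSB, an AP-1 subunit, stood at 10.7, 10.2 and 9.14 CPM in GFP-low FX1, against 5.63, 6.42 and 5.16 CPM in GFP-high FX1 (log2 change 0.83 ± 0.079; 0.54), JUNB was at 0.29 ± 0.035 (-0.15) and DUSP5, a MAP kinase phosphatase, at 0.28 ± 0.03 (0.05, not called). Of 17 BCL2 family genes 12 rose and 4 fell (4 and 3). BMF, a pro-apoptotic member, stood at 100.2, 97.7 and 97.8 CPM in GFP-low FX1, against 53.4, 56.4 and 53.9 CPM in GFP-high FX1 (0.86 ± 0.033; 0.62) and MCL1, an anti-apoptotic one, at -0.32 ± 0.017. Of 22 p53 targets 11 rose and 9 fell (3 and 7), with MDM2, RRM2B and CCNG1 at -0.48 ± 0.019, -0.56 ± 0.024 (-0.23) and -0.63 ± 0.025 (-0.31), and death receptor genes gave 6 and 6 of 17 (5 and 4), with FAS at -0.71 ± 0.037 (-0.43) and XIAP, a caspase inhibitor, at -0.38 ± 0.031 (-0.18). Of 23 ATF4 response genes 14 rose and 6 fell (7 and 9), with MTHFD2 at -0.36 ± 0.017 (-0.19) and SLC3A2 at 0.33 ± 0.019 (0.07). Of 33 MYC and ribosome biogenesis genes 14 rose and 13 fell (3 and 21 with the trend removed, 14 and 15 with DESeq2's size factors), with the nucleolar proteins NPM1 and NCL at -0.45 ± 0.011 (-0.29) and -0.45 ± 0.011 and ODC1, the first enzyme of polyamine synthesis, at -0.47 ± 0.015.

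MHC class II genes were mostly higher, while class I genes turned with the trend. Of 16 MHC class II genes 11 rose and 3 fell (median 0.15), and 9 rose and 5 fell with the trend removed. RFX5, a factor bound to class II promoters, changed by 0.35 ± 0.023, HLA-DQA1 by -0.21 ± 0.017 (-0.02, not called) and CIITA, the class II coactivator, by 0.20 ± 0.016 (-0.09). Of 18 MHC class I genes 10 rose and 5 fell (4 and 8), with B2M, the class I light chain, at 516, 506 and 504 CPM in GFP-low FX1, against 712, 709.8 and 709 CPM in GFP-high FX1 (-0.48 ± 0.013; -0.24). Of 27 interferon response genes 10 rose and 5 fell, a called share (55.6%) below that of coding genes, and 10 and 4 did so with the trend removed, with STAT2, IRF1 and BST2 at 0.34 ± 0.039, 0.29 ± 0.032 (0.10) and 0.26 ± 0.032 (0.09). Of 28 autophagy and lysosome genes 15 rose and 10 fell (7 and 12), with ULK1, a kinase that starts autophagy, at 0.90 ± 0.057 (0.40), SQSTM1, an autophagy receptor, at 0.20 ± 0.014 (-0.09), and CTSD, a lysosomal protease, at 0.49 ± 0.035 (0.06, not called). Of 38 nuclear respiratory chain genes 16 fell and 10 rose (16 and 9), or 14 and 15 in a fit of protein-coding genes only, with SDHD and UQCRB at -0.50 ± 0.025 (-0.23) and -0.38 ± 0.018 and NDUFV1 at 0.40 ± 0.019 (-0.12 and 0.08 with the trend removed for the last pair).

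**Figure D4:**
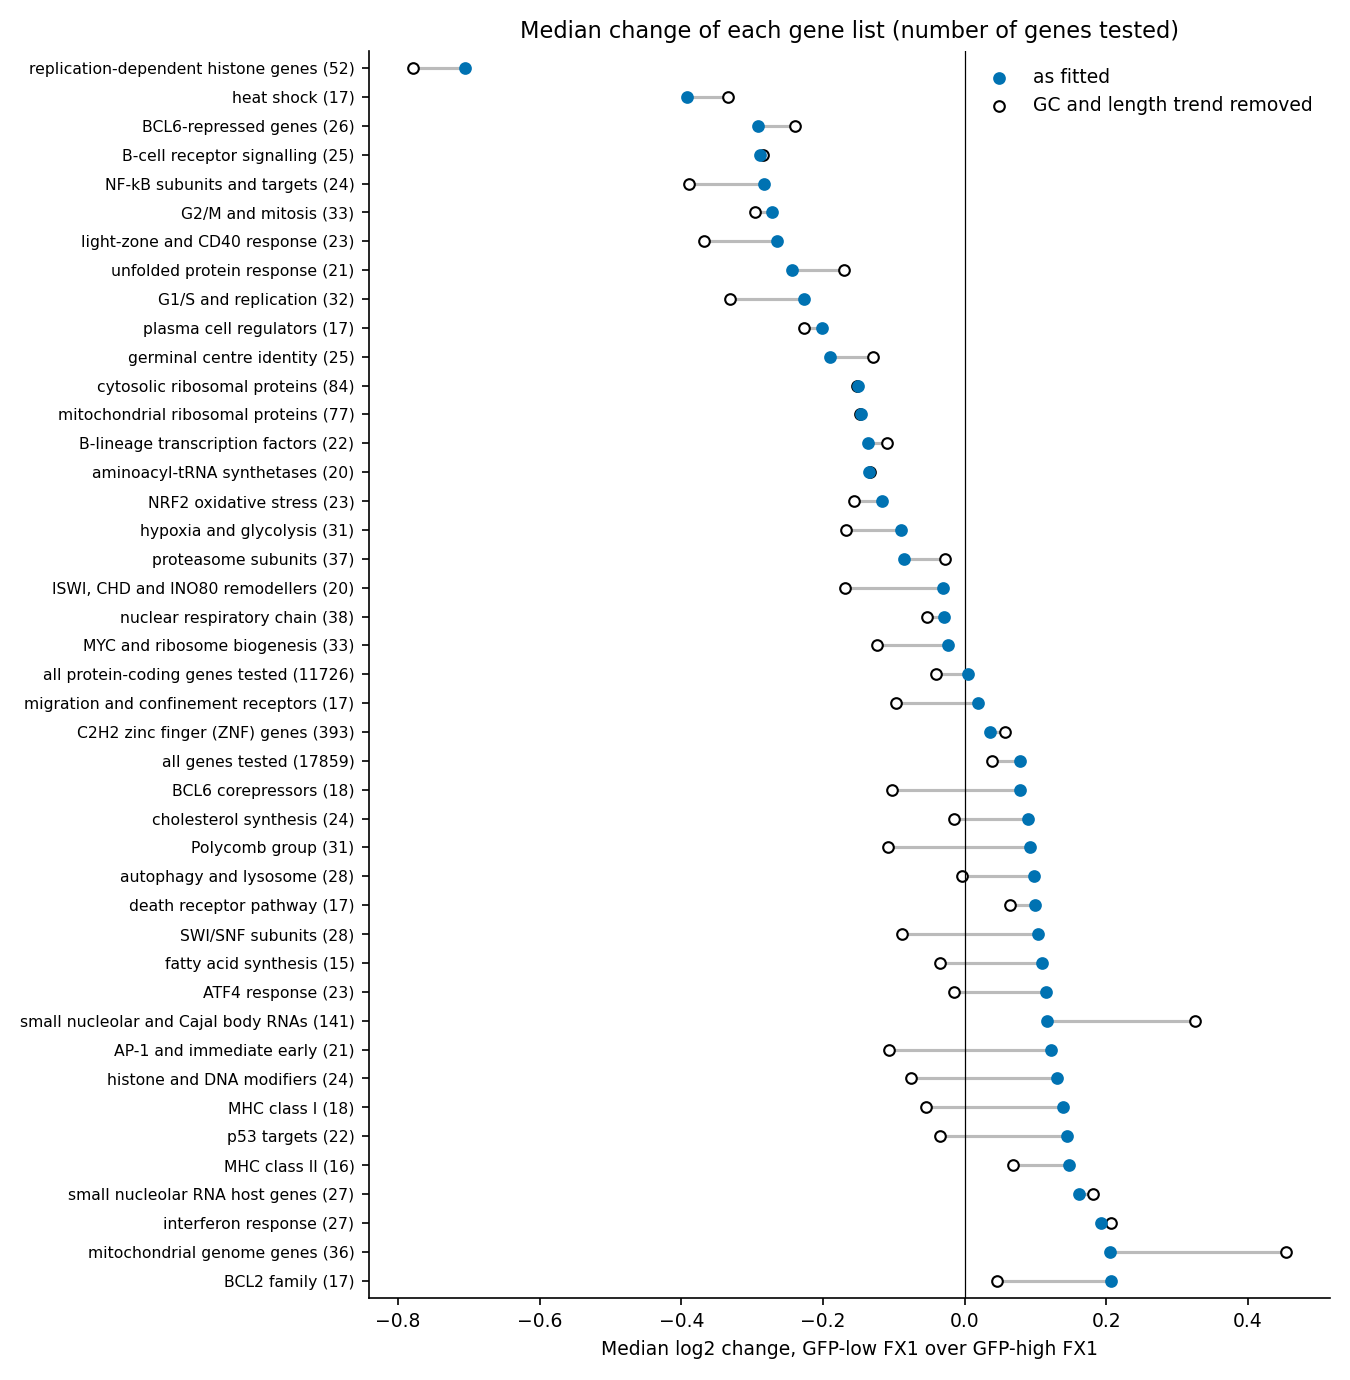
Median log2 change (GFP-low FX1 over GFP-high FX1) of the gene lists with at least 15 tested members and of all genes, with the number tested in brackets, as fitted (blue) and with the GC and length trend removed (open points). The histone list is farthest from 0, at -0.71 and -0.78, while lists such as SWI/SNF subunits cross 0, at 0.10 and -0.09.

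The same gates were also compared under DMSO, with no library in common. There 8233 genes differed (46.1%), 3876 higher (21.7%) and 4357 lower (24.4%) in GFP-low DMSO. Of 6459 genes called under both treatments, 63.6% of the FX1 calls and 78.5% of the DMSO calls, 5965 (92.4%) had the same direction, 2712 higher and 3253 lower. The gate effect itself differed between treatments for 5583 genes (31.3%) by edgeR, 2636 higher (14.8%) and 2947 lower (16.5%) under FX1, and for 494 genes the gates differed in opposite directions. With mitochondrial and dominant genes left out of the scaling, the split was 2014 higher and 3617 lower.

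Several of the genes described above were farther apart under FX1 than under DMSO. CCL3, CCL4 and CCL4L2 had log2 changes of -1.82, -2.25 and -1.58 under FX1 and -0.34, -0.89 and -0.24 under DMSO, differences of -1.47 ± 0.08, -1.36 ± 0.18 and -1.34 ± 0.08 (SE). CD69 gave -1.38 under FX1 and -0.28 under DMSO, LTA -1.61 and -0.65, RGS13 -1.24 and -0.43 and H2BC18 -1.38 and -0.48. The edgeR adjusted p of these differences was at most 3.31e-11. For histone genes the difference was lower under FX1 in 46 of 52 cases (median -0.51). LTB had changes close to each other under the 2 treatments (-1.25 under FX1 and -1.33 under DMSO; difference 0.08 ± 0.061, edgeR adjusted p = 0.35), as were SH2D1A (-1.49 and -1.52) and PCNA (-0.66 and -0.70), none of these differences being called. The G1/S list differed between treatments in 8 members upward and 5 downward, and the heat shock list in 5 and 6. PRDM1 was closer between gates under FX1, at 0.63 against 0.97 under DMSO (difference -0.34 ± 0.057, edgeR adjusted p = 1.33e-07). FOSB and MT-CO1 were higher in GFP-low cells under FX1 and lower under DMSO, at 0.83 and 0.39 against -0.56 and -0.63.

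**Figure D5:**
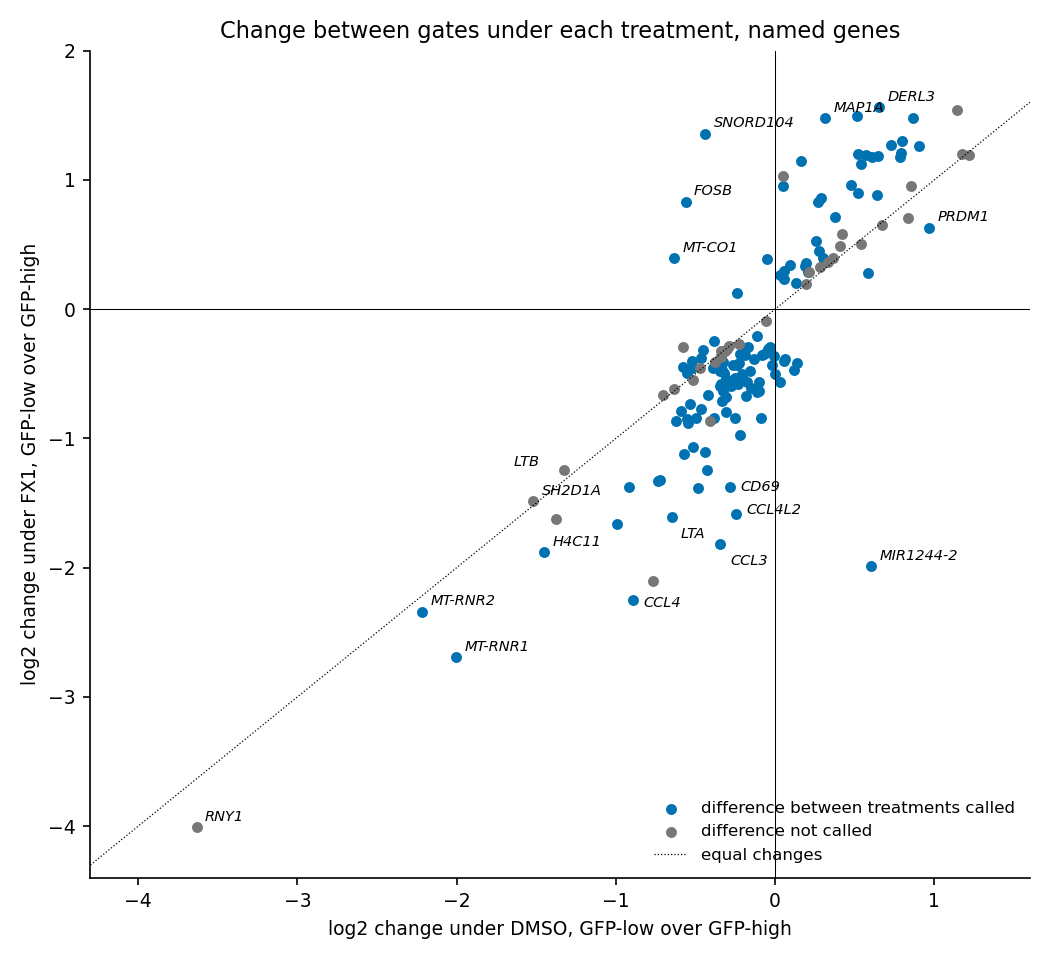
Log2 change between the gates (GFP-low over GFP-high) under FX1 (vertical) against DMSO (horizontal) for the named genes, blue where the difference between treatments was called. CCL3, CCL4 and CCL4L2 lie well below the dotted line of equal changes, LTB and SH2D1A lie near it, and MT-CO1 and FOSB lie in the quadrant of opposite signs.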

How the data were processed

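Per the labels' protocols, total RNA of Raji cells was depleted of ribosomal RNA and made into 12 libraries with KAPA RNA HyperPrep. FastQC, STAR, featureCounts of Subread and R 4.2.1 with the hg38 build are named in the submitters' processing notes. Aligner and counter versions, annotation release and strand use are not given in the sources used here. The authors deposited raw counts per gene. Of 60710 lines, 3 formed 1 broken record and were left out. Symbols were in place for 99.7% of genes, and transcript GC content and type came from GENCODE v29. Every count column had a sample.

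edgeR 4.0.16 under R 4.3.3 tested the counts (filterByExpr, TMM, robust quasi-likelihood fit to the 12 libraries, 8 residual degrees of freedom, Benjamini-Hochberg adjustment over all 17859 genes, threshold 0.05). Levels are TMM-scaled CPM. The GC and length trend was a spline with 5 degrees of freedom for each, fitted per library and entered as offsets for 17557 genes (98.3%). Fits were tested on simulated data. Of genes changed by 1.25-, 1.5- and 2-fold, 36 of 68, 47 of 69 and 47 of 58 were recovered between the FX1 gates. For the difference between treatments 29, 43 and 40 were recovered. Unchanged genes called numbered 8 and 13. Far fewer genes were changed there than were called in the data, so the simulation does not test the scaling. Total counts were 20454028 to 42556661 per library, and intervals cover counting and library spread only, since PCR reads lacking molecular identifiers may be copies of 1 molecule.

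The 46 gene lists, the members and the tests were chosen with earlier results of these data known. Text names, by rule, the 15 largest called rises and falls among protein-coding genes, and 4 each among other types, whose mean log2 CPM reaches 2, whose ranges do not overlap and whose symbol is not a placeholder. It also names SMARCA4, SMARCA2, BCL6, PRDM1 and, per list, the 3 called members of lowest p at most (2 if none was called). Some genes that this rule names are not reported here. Alternatives were DESeq2 1.42.0 and its size factors, other filters and scalings, a replicate block, a 1.5-fold floor, the GC and length trend and leaving out each library.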

Additional observations from a re-analysis of the deposited data

Results flagged for a closer look

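The change between the gates (GFP-low over GFP-high) differed between FX1 and DMSO, by edgeR's test of the difference itself against a floor of 1.5-fold, for 15 of the genes named above. Values are log2 differences of the gate effect under FX1 minus that under DMSO.

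Chemokine and activation genes were lower in GFP-low cells under both treatments and more so under FX1, with differences of -1.472 for CCL3, -1.359 for CCL4, -1.34 for CCL4L2, -1.093 for CD69 and -0.96 for LTA. The histone gene H2BC18, at -0.899, and the germinal centre gene RGS13, at -0.812, did the same, as did INSIG1 at -0.754 and PCGF5 at -0.753. After removal of the GC and length trend, the differences of CD69, RGS13 and PCGF5 were -0.83, -0.56 and -0.45 and that of CCL3 was -1.47.

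Among transcripts that are not messenger RNAs, MIR1244-2 differed by -2.593, being lower in GFP-low cells under FX1 (-1.99) and higher under DMSO (0.60), and its several copies may share reads. MT-RNR1 differed by -0.69, in libraries depleted of ribosomal RNA, and SNORD104 by 1.797.

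MT-CO1, at 1.027, and FOSB, at 1.394, were higher in GFP-low cells under FX1 and lower under DMSO. Mitochondrial genes took 4.76% of counts in GFP-low DMSO and 7.88% in GFP-high DMSO, and what part that share has in the scaling of MT-CO1 was not tested. MAP1A differed by 1.166, with a log2 change of 1.48 under FX1 and 0.31 under DMSO.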

How the results depend on the processing

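The 10158 genes that differed between GFP-low FX1 and GFP-high FX1 were 728 with a 1.5-fold floor, and the 5583 differences between treatments were then 151. The 888 genes at 2-fold were 277 (182 higher and 95 lower) when 50 counts in 3 libraries were required. With protein-coding genes only they were 455 (361 higher and 94 lower). DESeq2 called 9331 genes, 4606 higher and 4725 lower. Leaving out 1 FX1 library at a time gave 9387 to 9794 differing genes and 867 to 948 at 2-fold, and leaving out 1 DMSO library 10092 to 10205 and 870 to 938. Without any 1 GFP-high DMSO library the split was 4741 to 4784 higher and 5341 to 5351 lower. The other counts without 1 library were 7451 to 7763 under DMSO and 5167 to 5432 differences between treatments. With mitochondrial and dominant genes left out of the scaling, 4775 genes were higher and 5280 lower, against 5391 and 4767.

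Removing the GC and length trend moved 36 of 92 list counts by over 1.5 times and turned the sign of 10 of the 166 named genes. These were SMARCA4 at -0.20, JUNB at -0.15, KDM6B at -0.13, KMT2D at -0.11, SQSTM1 at -0.0926, CIITA at -0.0862, FASN at -0.0683, PFKL at -0.059, SCARNA7 at 0.0639 and PSMA3 at 0.0825, and the cause was not tested. It ended the calls of SCARNA7, BCL6, SMARCA2, CD14, CTSD, DUSP5, HLA-DQA1 and KMT2B. No other alternative turned a named gene. The calls of LCK, CD14 and SMARCA2 were lost in other settings too, and every other named call held in each setting that left the trend in and used no fold floor.

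Replicate numbers are shared by the 4 groups. Deviations of same-numbered libraries of the 2 FX1 gates had correlations of -0.018, -0.012 and 0.002 across 10467 genes, so the numbers were not taken as pairs. With the replicate number as a block, 10111 genes differed (5353 higher and 4758 lower), 885 at 2-fold and 5536 between treatments. With the block and the trend removal together, SMARCA4 stood at -0.20, JUNB at -0.14, KDM6B at -0.13, KMT2D at -0.11, SQSTM1 at -0.092, CIITA at -0.0869, FASN at -0.0687, PFKL at -0.0600, SCARNA7 at 0.061 and PSMA3 at 0.0820.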
